A study of Caenorhabditis elegans with 2 samples.

Results

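The 10 genes described here build the contractile apparatus of body wall muscle in Caenorhabditis elegans and anchor it to the body wall. Of these, 4 are attachment genes (unc-52, unc-97, unc-112 and deb-1) and 6 are filament genes (unc-60, unc-54, myo-3, unc-15, unc-89 and unc-22). They are 10 of the 19973 nuclear protein-coding genes of the Ensembl annotation. The genes were chosen with signals from these same peak lists known, so the signals, ranks and counts below are descriptions and carry no test. For each gene, every peak summit was read from 5000 bp upstream of the annotated 5′ end to the gene end, a stretch called the gene region here.

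The study mapped where PHA-2 sits on the genome by ChIP-seq. PHA-2 is a homeobox transcription factor of the Hex type, without which the pharynx does not form a normal isthmus. The design holds a single group of 2 biological replicates, with no other genotype, stage or treatment. Both replicates came from strain OP687, which carries the unc-119 allele tm4063 and the transgene wgIs687, which produces PHA-2 with GFP and FLAG at its C terminus. Embryos of both sexes were taken late in embryogenesis, 3 hours after egg bleaching, and GFP was precipitated. Both replicates were thus from 1 transgenic line, and the factor measured is the tagged transgene product, whose promoter is not given in the sources used here. No sample without the transgene was analysed here. Chromatin came from whole embryos, so the tissue in which a site was occupied is not measured, and many cells with weak occupancy cannot be told apart from few cells with strong occupancy.

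Muscle of the body wall pulls on the cuticle through the epidermis. Thick filaments of myosin around a paramyosin core are tied to the membrane at M-lines, and thin filaments of actin at dense bodies. Both structures sit on integrin, which holds the basement membrane outside the cell and a set of adaptor proteins inside it. Giant proteins related to titin lie along the thick filaments and at the M-line. In mutants of unc-52 and unc-112, and of several of their partners, embryos stop elongating and are paralysed, so the apparatus is built and used in the second part of embryogenesis.

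The relaxed lists held 23371 peaks for replicate 1, 24336 for replicate 2 and 30000 for both replicates pooled. The optimal list, which the authors kept by irreproducible discovery rate (IDR), held the 878 highest of the pooled list. Signal is the authors' own value for each peak. Each list was called separately, so signals of different lists are given side by side and not averaged, and ranks count from the highest signal of a list. The deposited lists give no read counts, so the depth behind these values is unknown and no interval from depth can be given.

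In the pooled list, the PHA-2 signal of these 10 genes was highest upstream of unc-97, unc-52 and unc-60. It was intermediate at unc-89, unc-112, deb-1, unc-15 and unc-54, and low at myo-3 and unc-22. The place of unc-60 did not hold in replicate 2. There its highest signal (50.9, rank 1739) was below those of unc-112 (54.6, rank 1355) and unc-89 (54.4, rank 1375). An optimal summit lay in the gene region of 2 of the 10 genes, unc-97 and unc-52, both of the attachment class. The same rule called 6.94% of all nuclear protein-coding genes, and 14.1% of the 1672 genes whose region was at least as long as that of the median member (12.6 kb). With only 10 genes, 2 called genes say little about the group against these backgrounds. In the promoter window, which reached from 1000 bp before the 5′ end to 500 bp after it, none of the 10 genes had an optimal summit (0 of 10, against 2.74% of all nuclear protein-coding genes). The summits of unc-97 and unc-52 lay 1140 and 1172 bp upstream, just outside that window. With a window from 2000 bp upstream both were called (2 of 10, against 3.62% of all genes), and with a gene region that began 1000 bp upstream neither was (0 of 10, against 3.87%). Both genes had the nearest annotated start to their optimal summit, of any gene type, which held for 1.86% of all nuclear protein-coding genes. Neither summit was in the 439 highest of the optimal list (0 of 10, against 3.65%).

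In 5 of the 10 genes the highest pooled summit had the gene's own 5′ end as the nearest gene start. The share of all protein-coding genes for which this holds was not computed, so the count serves only to choose windows. The DNA under the 4 strongest of these summits is shown, because they carry the upstream signal described below. Each is 151 bp centred on the pooled summit, read on the plus strand of the RefSeq WBcel235 genome, which is the same assembly as ce11. None of them touches an annotated exon. Capitals mark TAAT, the core that many homeodomains bind, or ATTA, the same letters on the other strand. The windows are chrII:14685553-14685703 for unc-52, chrX:5591918-5592068 for unc-97, chrV:14697008-14697158 for unc-112 and chrV:1474704-1474854 for unc-60.
unc-52: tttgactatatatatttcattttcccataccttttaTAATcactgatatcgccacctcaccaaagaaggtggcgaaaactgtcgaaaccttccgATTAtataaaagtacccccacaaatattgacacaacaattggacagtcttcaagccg
unc-97: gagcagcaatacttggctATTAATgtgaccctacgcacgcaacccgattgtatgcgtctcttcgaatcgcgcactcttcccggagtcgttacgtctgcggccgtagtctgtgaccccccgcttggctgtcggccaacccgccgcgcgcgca
unc-112: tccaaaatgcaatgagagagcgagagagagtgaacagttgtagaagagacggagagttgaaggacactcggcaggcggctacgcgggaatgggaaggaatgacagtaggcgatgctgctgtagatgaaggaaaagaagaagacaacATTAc
unc-60: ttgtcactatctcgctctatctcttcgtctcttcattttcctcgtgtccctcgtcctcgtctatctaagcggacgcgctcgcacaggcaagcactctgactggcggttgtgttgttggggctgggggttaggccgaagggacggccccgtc

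The base composition of these windows differs widely. The unc-97 window is 60.9% G and C and that of unc-60 58.3%, above the 47.0% median of the 856 nuclear optimal windows, while the unc-52 window is 37.7%, close to the 36.4% median of all 29976 nuclear pooled windows. The unc-112 window is 49.0%. TAAT was found once in the unc-112 window, at 2 separate places in that of unc-52 and at 2 overlapping places in that of unc-97. It was absent from the unc-60 window. The same letters are in 57.0% of the optimal windows and in 73.5% of the pooled windows, so a match is common in both. Over the highest pooled summit of each of the 10 genes, 5 windows held TAAT and 1, that of unc-15, held ATTAAA (14.7% of optimal and 25.3% of pooled windows). GAGAGA was found in the unc-112 and deb-1 windows, with 3 matches at unc-112 (overlapping ones counted), against 25.7% of optimal and 11.0% of pooled windows. The E-box CANNTG, the kind of site bound by the muscle factor HLH-1, was in 6 of the 10 windows (46.4% of optimal and 40.1% of pooled windows). The B box, part of the internal promoter of tRNA genes and read here as GGTTCGA, any pair of bases and CC, was in none of the 10 windows, in 10.3% of optimal windows and in 1.05% of pooled windows. All motifs were read on both strands within 75 bp of the summit.

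Among the attachment genes, unc-97 had the highest signal. It encodes a LIM domain protein of the PINCH family, found at dense bodies and M-lines. The gene (WBGene00006826) is short and lies on the plus strand of chromosome X, at 5593133 to 5594965. Its optimal peak, at 5591765 to 5592220, had its summit 1140 bp upstream of the 5′ end, between genes, with a pooled signal of 138 (rank 627) and a deposited −log10 q of 1.92. Replicate 1 had a summit 1038 bp upstream with a signal of 73.4 (rank 680), and replicate 2 had one 1158 bp upstream with a signal of 76.8 (rank 488). Both replicate summits are among the 878 strongest peaks of their lists, and the replicate summits lay 102 and 18 bp from the pooled one. The only other pooled summit of the region lay 936 bp upstream with a signal of 40.6 (rank 20887). Among the 13008 nuclear protein-coding genes whose region length lies within 20% of that of unc-97, 96.1% had a highest pooled signal at or below that of unc-97 (or no pooled summit), and 5.24% had an optimal summit.

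The unc-52 gene encodes perlecan, the large heparan sulfate proteoglycan of the basement membrane under which the muscle attaches. It (WBGene00006787) lies on the minus strand of chromosome II at 14647321 to 14684456 and has 17 annotated transcripts. Its optimal peak, at 14685400 to 14685855, had its summit 1172 bp upstream, between genes, with a pooled signal of 120 (rank 874) and a −log10 q of 1.65. This was the member summit just inside the optimal list, whose last peak had a signal of 120.2 at rank 878. Replicate 2 placed its strongest unc-52 summit at the same position within 1 bp, 1171 bp upstream, with a signal of 68.3 (rank 666). Replicate 1 had 2 summits there, 1008 and 1212 bp upstream, with signals of 57.3 (rank 1352) and 52.9 (rank 1734), neither within its 878 strongest peaks.

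A second place at unc-52 was closer to the gene start. The strongest unc-52 summit of replicate 1 lay 252 bp upstream with a signal of 67.4 (rank 845). Replicate 2 had a summit 64 bp upstream with a signal of 55.8 (rank 1267). The pooled list split this place into summits 122 and 327 bp upstream with signals of 94.3 (rank 1742) and 77.5 (rank 3245). Both replicates therefore had signal at each of the 2 places, but ordered them differently. In the gene body, 15 further pooled summits were spread over the gene, led by one in a coding exon 21379 bp downstream of the 5′ end with a signal of 78.3 (rank 3141). That one was matched at the same base in replicate 1 (43.4, rank 3260) and 21370 bp downstream in replicate 2 (24.7, rank 18508). The total of 18 pooled summits equals the median of 18 over the 56 nuclear protein-coding genes of like region length, and 14 of those genes had an optimal summit.

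The remaining attachment genes had no optimal summit. The unc-112 gene encodes the kindlin of the worm, which binds integrin on its inner side. Its highest pooled summit lay 429 bp upstream, between genes and with unc-112 as the nearest gene start, with a signal of 94.1 (rank 1756). The replicates had summits 52 and 12 bp from it, with signals of 42.0 in replicate 1 (rank 3615) and 54.6 in replicate 2 (rank 1355). The replicates thus agreed on the place at unc-112 and differed in its rank. The deb-1 gene encodes vinculin, which links integrin to actin at dense bodies. Its highest pooled summit (83.9, rank 2483) lay 4366 bp upstream, inside the gene ZC477.4 and the non-coding RNA gene ZC477.16. The start of ZC477.4 was 152 bp away and that of ZC477.16 61 bp. This summit had signals of 51.1 in replicate 1 (rank 1904) and 35.3 in replicate 2 (rank 6575). The second (64.3, rank 5931) lay in a deb-1 intron 7029 bp downstream, 458 bp upstream of the start of another annotated deb-1 transcript. The deb-1 summit nearest to the 5′ end of the gene lay 887 bp upstream with a pooled signal of 48.6 (rank 13609).

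**Figure D1:**
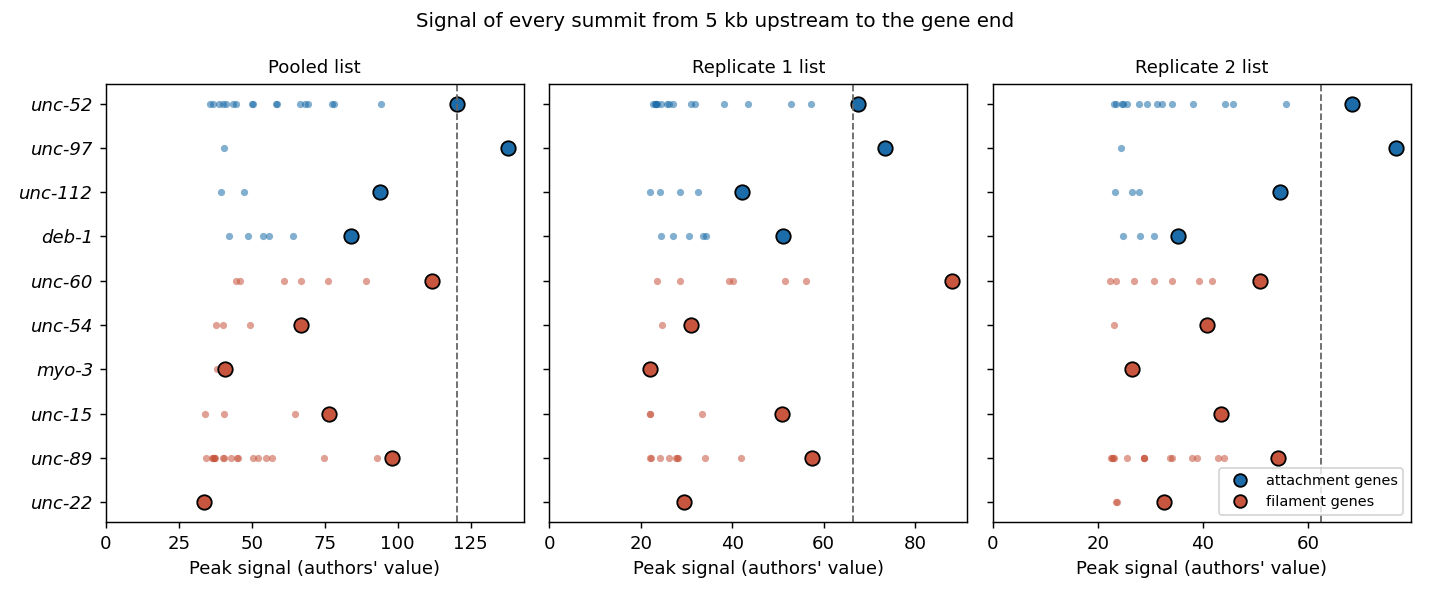
Signal of every summit in the gene region of each gene (x axis, the authors' value, 1 panel per list; rows are genes, blue for attachment and red for filament genes). Large points are the highest summit of a gene, and dashed lines mark the last optimal peak (120.2, pooled) or the peak of the same rank, 878, in each replicate (66.3 and 62.5). Only unc-97 and unc-52 pass the line in all 3 panels, and unc-60 passes it in replicate 1. The unc-52 summits past the line lie at different places in replicate 1 and replicate 2.

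Among the filament genes, unc-60 came nearest to the optimal list. It encodes proteins of the ADF/cofilin family, which sever and recycle actin filaments. The gene (WBGene00006794) lies on the plus strand of chromosome V at 1475086 to 1479576, and F53E2.2 is annotated with the same 5′ end. Its highest pooled summit, 307 bp upstream, had a signal of 111.8 (rank 1068, −log10 q 1.42). It was the highest member summit outside the optimal list, 8.48 signal units under its last peak. In replicate 1 the same base was the summit, with a signal of 88.1 (rank 436), the highest of any of the 10 genes in that replicate. In replicate 2 the nearest summit lay 87 bp away, with a signal of 50.9 (rank 1739). The replicates therefore disagree on whether unc-60 belongs among the 878 strongest places.

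The upstream region of unc-60 held several further summits. In the pooled list they lay 3383 bp upstream (89.2, rank 2050) and 1200 bp upstream (66.8, rank 5220), among others, and 1 intronic summit lay 2195 bp downstream (76.0, rank 3461). With 7 pooled summits in 9.49 kb, or 0.738 per kb, unc-60 had the densest region of the 10 genes. Only 172 of the 5445 nuclear protein-coding genes of like region length had more, and their median was 2.

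The promoter windows of the thick filament genes unc-54 and unc-15 held no pooled summit, and that of myo-3 held a weak one. The unc-54 gene encodes the major body wall myosin heavy chain. Its highest pooled summit (66.8, rank 5221) lay 4358 bp upstream and only 84 bp from the start of the neighbouring gene F11C3.1. It was found in both replicates, with signals of 24.6 in replicate 1 (rank 17879) and 40.7 in replicate 2 (rank 3935). The myo-3 gene encodes the myosin heavy chain of the filament centre. It had a pooled summit 406 bp upstream with a signal of 40.9 (rank 20527), present in replicate 2 (26.4, rank 15601) and with no replicate 1 summit within 3777 bp. The only replicate 1 summit of the myo-3 region lay 4183 bp upstream (22.1, rank 22872). The median signal was 46.8 over all pooled peaks and 29.1 and 29.0 in the replicates, so the values at myo-3 were under the middle of each list.

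The unc-15 gene encodes paramyosin, the core of the thick filament. Its highest pooled summit (76.3, rank 3416) lay in its 3′ UTR, 6540 bp downstream of the 5′ end. Replicate 1 had it at the same base (51.0, rank 1923), and replicate 2 had no summit within 7988 bp of it. The second summit, 4530 bp upstream and inside the gene C15A11.2, had a pooled signal of 64.8 (rank 5770). There the replicates were the other way round, with 43.4 in replicate 2 (rank 3121) and 21.9 in replicate 1 (rank 23087). Neither place of unc-15 was thus high in both replicates.

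The giant filament genes unc-89 and unc-22 differed from each other. The unc-89 gene encodes obscurin-like proteins of the M-line from 16 annotated transcripts. Of its 18 pooled summits, the highest (97.9, rank 1559) lay in an intron 39264 bp downstream of the 5′ end, 5573 bp upstream of the nearest annotated start of an unc-89 transcript and 1838 bp from the start of clec-89. The replicates had it within 5 bp, with signals of 42.0 in replicate 1 (rank 3623) and 54.4 in replicate 2 (rank 1375). The next, 3103 bp upstream (93.1, rank 1811), lay 860 bp from the start of unc-73, which is read in the other direction. The third (74.8, rank 3654) lay inside the snoRNA gene C24G7.6, which sits in an unc-89 intron. It was the only 1 of the 65 pooled summits of the 10 genes within 200 bp of a tRNA, snoRNA or snRNA gene, against 2.12% of all pooled peaks. The region of unc-89 was 60.2 kb long. The 12 nuclear protein-coding genes of like region length had medians of 21 pooled summits and a highest pooled signal of 102. Of those 12 genes, 4 had an optimal summit.

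The unc-22 gene encodes twitchin, a giant kinase of the thick filament. Over a region of 43.3 kb it had a single pooled summit, in an intron 401 bp downstream of the 5′ end, with a signal of 33.8 (rank 29710). Replicate 2 had a summit 50 bp from it (23.6, rank 20551), and the nearest summit of replicate 1 was 12069 bp away. In each replicate list the region was also thinly filled, with 1 summit in replicate 1 and 3 in replicate 2. The highest of these had signals of 29.4 in replicate 1 (rank 11370) and 32.5 in replicate 2 (rank 8636). Both were slightly above the medians of their lists (29.1 and 29.0), and neither lay at the place of the pooled summit. The median over the 52 nuclear protein-coding genes of like region length was 19 pooled summits, and 51 of those genes had more than unc-22. The unc-52 region, of nearly the same length (42.1 kb), had 18. The deposited lists do not show how well reads can be placed in the unc-22 region, and its part in this count was not tested.

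**Figure D2:**
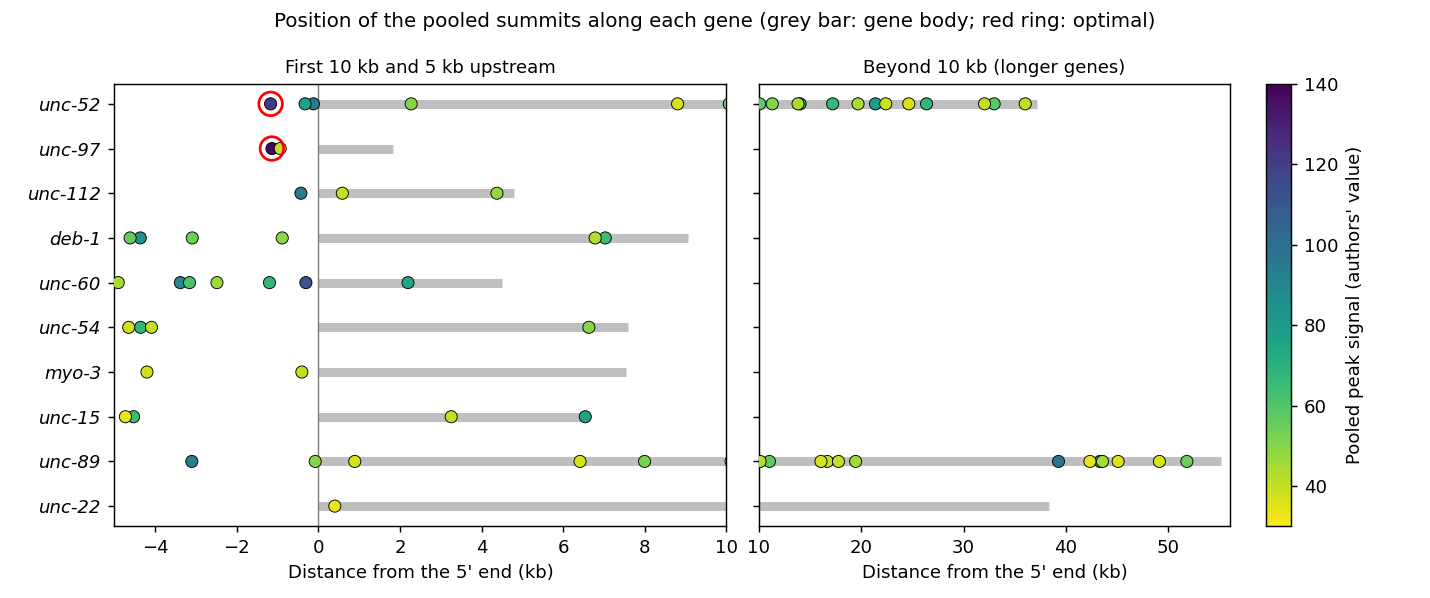
Position of the 65 pooled summits of the 10 genes (x axis, distance from the annotated 5′ end in kb, upstream negative; colour, pooled signal), with gene bodies in grey and optimal summits ringed. The left panel shows 5 kb upstream and the first 10 kb, the right panel the rest of the 3 longest genes. The ringed summits of unc-97 and unc-52 lie at 1140 and 1172 bp upstream, and unc-22 has 1 summit in its whole length.

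All 10 genes had at least 1 summit in the region in each relaxed list, but so did 73.8% of all nuclear protein-coding genes by the pooled list, 69.9% by replicate 1 and 71.7% by replicate 2. In the promoter window 8 of the 10 genes had a pooled summit, against 39.6% of all genes. The relaxed lists include background by design, so presence in them was not read as binding. The median over the 10 genes of the highest pooled signal was 88.99, against 58.9 over the 14736 nuclear protein-coding genes with a pooled summit and 72.9 over the genes with regions at least as long as that of the median member. It was 107 for the 4 attachment genes (83.9 to 138) and 71.6 for the 6 filament genes (33.8 to 111.8). The ranges of both classes overlap.

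By highest pooled signal the order was unc-97, unc-52, unc-60, unc-89, unc-112, deb-1, unc-15, unc-54, myo-3 and unc-22. In replicate 1 it was unc-60, unc-97, unc-52, unc-89, deb-1, unc-15, unc-112, unc-54, unc-22 and myo-3. In replicate 2 it was unc-97, unc-52, unc-112, unc-89, unc-60, unc-15, unc-54, deb-1, unc-22 and myo-3. In all 3 lists unc-97 stood directly above unc-52, unc-89 was the fourth, and myo-3 and unc-22 were the lowest. The positions of unc-60, unc-112 and deb-1 changed between the replicates, so neighbours in the middle of the order cannot be told apart. When as many of the strongest peaks of each replicate as the optimal list holds were read alone, unc-97 and unc-52 were called in both replicates (2 of 10 genes, against 4.47% of all nuclear protein-coding genes). For unc-52 the places differed, 252 bp upstream in replicate 1 (rank 845) and 1171 bp upstream in replicate 2 (rank 666). Replicate 1 also called unc-60, which made 3 of 10 against 6.94%, and replicate 2 called 2 of 10 against 6.54%. In the promoter window replicate 1 called unc-52 and unc-60 (2 of 10, against 2.77% of all genes) and replicate 2 called none (0 of 10, against 2.39%).

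**Figure D3:**
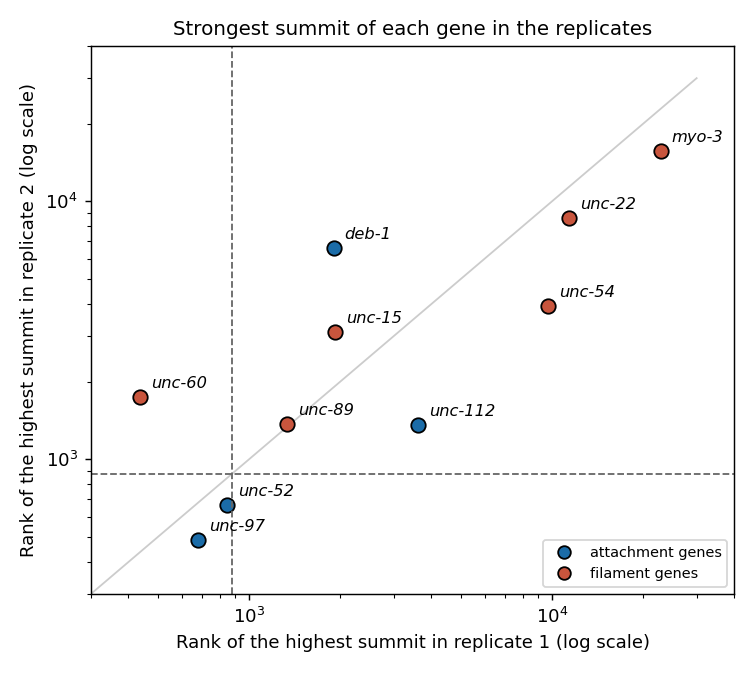
Rank of the highest summit of each gene region in replicate 1 (x axis, log scale) and replicate 2 (y axis, log scale), where low ranks are strong (blue, attachment genes; red, filament genes). Dashed lines mark rank 878, and the grey line marks equal ranks. The unc-97 and unc-52 points lie inside both lines, unc-60 inside that of replicate 1 alone (436 against 1739), and myo-3 and unc-22 at the weak end of both.

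The replicates gave the same place for most of the highest summits. For 7 of the 10 genes the highest pooled summit had a summit of both replicates within 200 bp, and the exceptions were myo-3, unc-15 and unc-22. The share over the highest pooled summit of every protein-coding gene was not computed, so this count has no background beside it. Over all 65 pooled summits of these genes, 25 (38.5%) had both replicates within 200 bp, 33 had 1 of them and 7 had neither. The share over all 30000 pooled peaks was 32.6%, and over the 878 optimal peaks 99.1%. By gene, the share was 9 of 18 at unc-52 and 4 of 7 at unc-60, against 4 of 18 at unc-89 and 0 of 2 at myo-3.

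Relaxed summits were denser in the 5000 bp upstream of these genes than inside them. Upstream there were 25 pooled summits in 50 kb (0.500 per kb), against 0.289 per kb upstream of all nuclear protein-coding genes. Of these 25, 6 were upstream of unc-60, and the density without unc-60 was not computed. Several lay nearer to the start of a neighbouring gene, among them all 3 of unc-54 (F11C3.1) and both of unc-15 (col-35). In the gene bodies there were 40 in 173 kb (0.232 per kb), against 0.283 per kb, but without unc-22 the gene bodies had 0.291 per kb, above all genes. The same order was seen in replicate 1 (0.480 and 0.174 per kb) and replicate 2 (0.400 and 0.203 per kb). All nuclear protein-coding genes had 0.231 and 0.216 per kb in replicate 1, and 0.236 and 0.234 per kb in replicate 2. Without unc-22 the gene bodies had 0.216 per kb in replicate 1 and 0.238 per kb in replicate 2. Upstream, the pooled density was 0.500 per kb for the attachment and for the filament genes. In the gene body it was 0.360 per kb for the attachment and 0.175 per kb for the filament genes. Single long genes move these values. The attachment genes had 0.255 per kb without unc-52, and the filament genes had 0.246 per kb without unc-22 and 0.0775 per kb without unc-89, each left out after the values were seen. Of the 65 pooled summits, 27 lay in introns of the gene, 11 in its coding exons, 2 in a 3′ UTR, 18 between genes and 7 inside another gene. In 26 cases the gene itself had the nearest protein-coding start, and in 19 the nearest start of any gene type but piRNA. The shares of these locations over all pooled peaks were not computed.

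**Figure D4:**
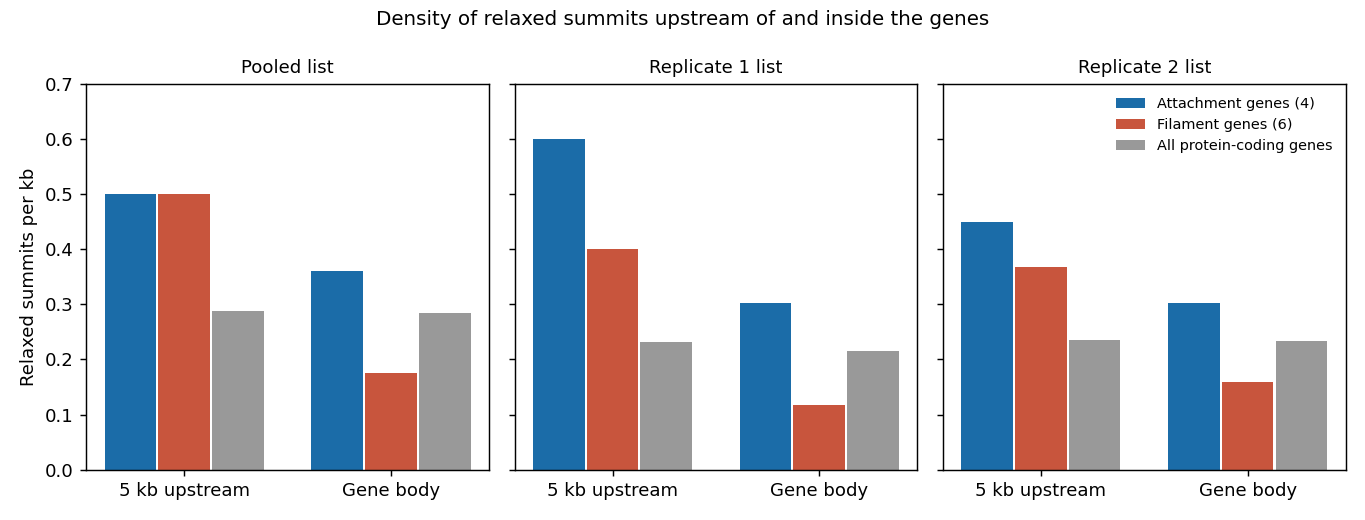
Relaxed summits per kb (y axis) in the 5 kb upstream of the 5′ end and in the gene body, in the pooled list and each replicate, for the 4 attachment genes, the 6 filament genes and all nuclear protein-coding genes. Bars are single totals with no error. In every panel both muscle classes stand above all genes upstream (0.500 against 0.289 per kb in the pooled list), and the filament genes stand below them in the gene body (0.175 against 0.283).

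The optimal peaks ranked next to those of unc-97 and unc-52 had no muscle gene at their side. Directly above unc-97 (signal 137.93, rank 627) was a peak at mdt-26, a Mediator subunit gene, with its summit 58 bp downstream of the gene start (137.94, rank 626). Directly below was one with dmsr-9 as the nearest protein-coding start, 2654 bp away (137.87, rank 628). Next to unc-52 were peaks at Y46C8AL.11 (120.4, rank 873) and at aps-2, a clathrin adaptor subunit gene (120.3, rank 875). Likeness here is a difference of 1 rank in pooled signal over both replicates. In replicate 1 these neighbours of unc-52 had ranks of 2039 and 1243, against 1352 for unc-52. In replicate 2 they had ranks of 1003 and 899, against 666 for unc-52.

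Other genes of the same structures were read in the same way, in 6 lists of 68 genes drawn from textbook knowledge. An optimal summit lay in the gene region of 2 of 18 other attachment genes, 2 of 22 other filament genes, 1 of 11 basement membrane genes, 0 of 8 fibrous organelle genes of the epidermis, 0 of 3 body wall muscle transcription factor genes and 0 of 6 pharyngeal muscle genes, against the 6.94% of all nuclear protein-coding genes given above. At these list sizes, 1 or 2 genes a list cannot be told from that background. In the promoter window the only one of the 68 genes with an optimal summit was cap-2.

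At most of these genes another gene lay nearer to the summit. The pat-3 gene encodes the beta integrin on which the whole attachment rests. Its optimal summit (signal 237, rank 191; ranks 226 and 173 in the replicates) lay 2676 bp upstream and 142 bp from the start of ccdc-47. In lim-8, which encodes a LIM domain protein of M-lines, the summit (138, rank 624; 637 and 872 in the replicates) lay in an intron inside a tRNA gene. In him-4, which encodes hemicentin, the highest of 2 optimal summits (418, rank 56; 75 and 43 in the replicates) also lay in an intron within a tRNA gene. The summit of cap-2, the gene of the beta subunit of actin capping protein (126, rank 786; 847 and 1377 in the replicates), lay 314 bp upstream and 162 bp from the start of gmps-1. The summit of the actin gene act-4 (229, rank 207; 229 and 191 in the replicates) lay in an intron 1951 bp downstream of its 5′ end, with act-4 as the nearest gene start. The second him-4 summit (144, rank 566) lay in an intron 26 bp from a tRNA gene. Over all 8 optimal summits of these lists and the 10 members, act-4, unc-97 and unc-52 were thus the only genes whose own start was the nearest. Of all nuclear protein-coding genes, 1387 had an optimal summit in the region and 371 had one with their own start nearest. Such genes were thus a minority there too.

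Other partners of the 10 genes fell below the optimal list, and those named here were chosen after their values were seen. Some were weak in the pooled list, such as pat-2 (46.2), act-1 (47.0), tni-3 (42.9), cpna-1 (39.3) and unc-98 (38.5). Others were higher. The tropomyosin gene lev-11 reached 117 in the pooled list, the actin gene act-3 112.1 and the laminin gene lam-2 112.5. The regulatory light chain genes mlc-1 and mlc-2 both reached 108 through a peak that they share. The integrin-linked kinase gene pat-4 reached 84.1 and the parvin gene pat-6 85.2, close to deb-1 (83.9). The muscle regulators hlh-1 (the worm MyoD), unc-120 and hnd-1 reached 74.3, 64.9 and 37.6. Of the pharyngeal muscle genes, ceh-22 reached 104, the pharyngeal myosin gene myo-2 83.2, tni-4 70.7 and tnt-4 39.3, while myo-1 and tnc-2 had no pooled summit. A pooled summit was also absent at unc-96 of the attachment list, unc-27 and pat-10 of the filament list and epi-1 of the basement membrane list. In the replicate lists myo-1 reached 44.7 in replicate 1 and 23.5 in replicate 2, and tnc-2 had no summit in either. Over the genes with a summit, the median highest signal was 63.9 for the other attachment and 87.4 for the other filament genes. It was 72.1 for basement membrane, 70.9 for fibrous organelle, 64.9 for muscle transcription factor and 76.9 for pharyngeal muscle genes. It was 88.99 for the 10 genes, which were chosen with their signals known. Region length differs between the lists, with medians in the same order of 12.4, 7.08, 15.4, 21.1, 7.79 and 8.65 kb, against 12.6 kb for the 10 genes.

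**Figure D5:**
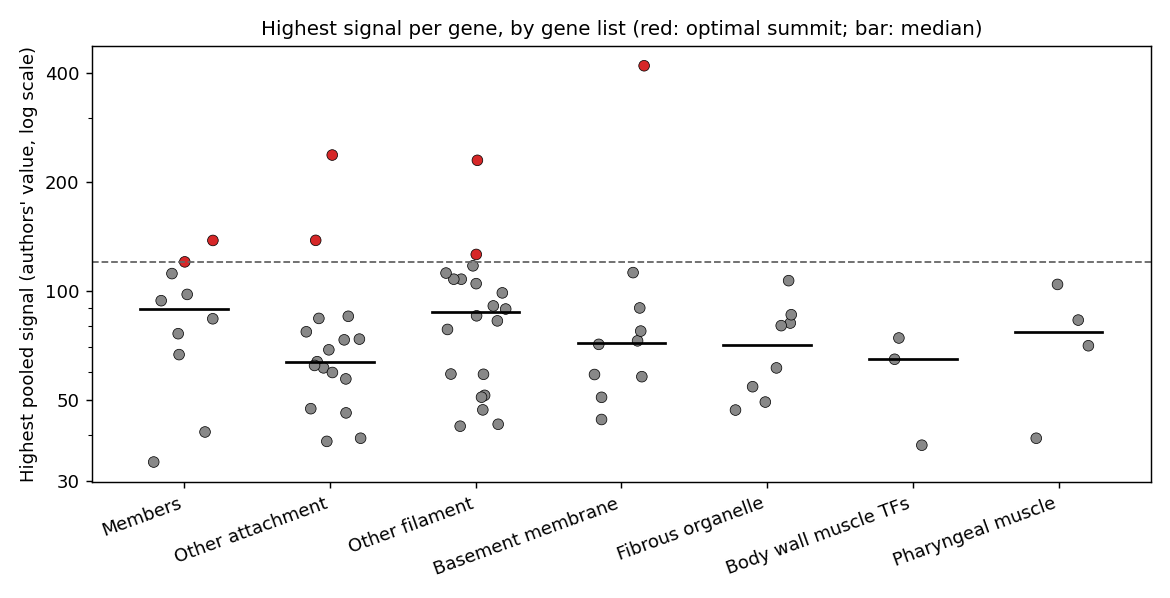
Highest pooled signal in the gene region (y axis, authors' value, log scale) for each gene with a pooled summit, by gene list; red points have an optimal summit, bars are medians and the dashed line is the last optimal peak (120.2). The lists overlap along most of their range, and the red points number 2, 2, 2 and 1 in the 4 lists at the left and none in the others.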

How the data were processed

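ChIP-seq was done in 1 group with 2 biological replicates. Per the text deposited with each library, peaks were called per replicate and on the pooled alignments against the same control, and the optimal list was made by IDR. The sources used here do not name the aligner, the caller or its settings. The deposited ce11 lists give a signal value and a −log10 q-value per peak. Checked on the files, 99.6% of pooled peaks are 456 bp wide and the optimal list is the head of the pooled list by signal. The ce10 lists were not used.

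Summits were placed on Ensembl release 115 genes (WBcel235, mitochondrial genes left out) with Python 3.11.15, pandas 2.3.3 and numpy 2.4.6. RefSeq gave 9 of the 10 genes the same coordinates, and myo-3 an end 1 bp away. The nearest gene start ignores piRNA genes. Like region length means within 20%. Gene assignment was tested on simulated summits. The members, lists and motifs were chosen with earlier results of these data known. Every member is named, and of other lists each gene with an optimal summit (highest first, up to 6 a list) and partners chosen after their values were seen.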

Additional observations from a re-analysis of the deposited data

How the results depend on the processing

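Of 23 alternatives, 15 kept the count or value within 1.5 times, or for percentiles within the spread between replicates, of that reported, and 8 did not. The 2 genes with an optimal summit in the region became 0 when the region began 1000 bp upstream (3.87% of all genes called) and 0 with the 439 highest optimal peaks (3.65%), since unc-97 ranks 627 and unc-52 874. In the single replicates the count ran from 2 to 3. In the promoter window the 0 genes became 2 (unc-97 and unc-52) with 2000 bp upstream (3.62%), and ran from 0 to 2 in the single replicates, where replicate 1 called unc-52 and unc-60 (2.77%) and replicate 2 none (2.39%). Both optimal summits had both replicates within 200 bp, 1 (unc-52) within 100 bp, and 1 (unc-97) when the replicate peaks had to be among the 878 strongest. The median percentile of the highest signal, 92.9 in the pooled list, ran from 90.0 to 91.8 in the replicates. Summit density, 0.292 per kb, was 0.500 for the 5000 bp upstream alone and 0.243 to 0.247 in the replicates. No paired analysis was possible because there is 1 group. With 2 replicates and unknown depth, places near rank 878 cannot be separated from those just outside it.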
